A study of Mus musculus with 6 samples.

Results

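The AP-1 and immediate early genes Fos, Fosb, Fosl2, Jun, Junb, Jund, Egr1, Atf3, Maff and Ier3 were examined in inflammatory mouse macrophages labelled as Nsun2 knockouts or as NC. They were taken by gene symbol from a deposited table of FPKM values, which count sequenced fragments relative to gene length and library size, and all 10 were found among its 54532 genes. The cells were macrophages differentiated in vitro from mouse bone marrow (bone marrow-derived macrophages), labelled NSUN2-KO (3 libraries) or NC (3 libraries). NSUN2 is an enzyme that methylates cytosines in RNA, above all in tRNAs. Cells of both groups had been stimulated with LPS and IFN-γ towards the M1 state, and no unstimulated cells were analysed here. What NC stands for is not in the labels, nor is how the knockout was made, how long the stimulation lasted, or the strain, age and sex of the mice. The design text counts 3 biological replicates in each group but names a smaller number where it describes the authors' own test, and 3 columns per group were found and used. It ties no library to an animal, so p-values measure the spread between these libraries.

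AP-1 is a dimer of basic leucine zipper (bZIP) proteins: a Jun protein binds a Fos protein or another Jun protein, and the pair binds DNA. In macrophages, LPS acts through Toll-like receptor 4 and the MAP kinases to switch on Fos, Jun, Egr1 and related genes within minutes and without new protein synthesis, which is why they are called immediate early genes. Their mRNAs are mostly short-lived, so that a steady-state level reflects both how strongly a gene is transcribed and how quickly its mRNA is removed.

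The libraries held 40105614, 35019033 and 37161700 reads in NSUN2-KO replicates 1 to 3, and 38516800, 45636131 and 39012241 reads in NC replicates 1 to 3. Nsun2 itself measured 0.967, 1.36 and 0.863 FPKM in NSUN2-KO and 1.88, 2.04 and 1.84 FPKM in NC, so it was lower but present in the NSUN2-KO libraries (log2 fold change -0.51, limma adjusted p = 0.0228). Sex-linked genes also separated the groups: Ddx3y, on the Y chromosome, had 0 FPKM in every NSUN2-KO library and 6.57 ± 0.43 FPKM in NC (SD, n = 3), and Xist measured 30.6 ± 1.20 FPKM in NSUN2-KO and 14.5 ± 0.88 FPKM in NC. Each NC library held both, with 6.95, 6.67 and 6.10 FPKM of Ddx3y and 15.5, 14.0 and 14.0 FPKM of Xist in replicates 1 to 3. Whether the NC libraries mixed cells of both sexes was not tested. Effects of the Nsun2 label and of this sex-linked difference cannot be told apart for any gene below. Macrophage markers summed to 3368 to 3409 FPKM in NSUN2-KO and 3929 to 4018 FPKM in NC over 8 genes. All 8 were tested, and 1 rose (Cd14) and 3 fell (Lyz2, Cd68 and Fcgr1), where 4.19% of all tested genes rose and 4.3% fell. Lyz2, the lysozyme of myeloid cells, averaged 1163 FPKM in NSUN2-KO and 1736 FPKM in NC (limma adjusted p = 0.000282). T and NK cell markers summed to 0.0269 to 0.252 FPKM in NSUN2-KO and 0.0257 to 0.182 FPKM in NC over the whole list of 10, and 5 of 5 erythroid markers were at 0 in every library. Neutrophil markers, of which Elane was at 0, summed to 81.6 to 85.6 FPKM in NSUN2-KO and 100.7 to 108.2 FPKM in NC over 11 genes. Only 6 of them were tested, of which 3 fell and 0 rose. Dendritic cell markers summed to 9.52 to 10.7 FPKM in NSUN2-KO and 6.32 to 7.75 FPKM in NC over 8 genes, with 1 of 3 tested higher. That gene, Ccr7, a chemokine receptor, measured 5.24 ± 0.32 FPKM in NSUN2-KO and 2.98 ± 0.65 FPKM in NC (limma adjusted p = 0.0144). Xcr1 (3.21 FPKM in NSUN2-KO, 2.41 FPKM in NC) and Itgax (1.03 FPKM in NSUN2-KO, 1.20 FPKM in NC) were not called. The remaining genes of the list, Flt3 and Zbtb46 among them, averaged under the 1 FPKM minimum for testing. Stromal markers summed to 0.460 to 0.666 FPKM in NSUN2-KO and 1.43 to 1.57 FPKM in NC over 6 genes, B cell markers to 0.230 to 0.294 FPKM in NSUN2-KO and 0.0940 to 0.364 FPKM in NC over 6 genes, and endothelial markers to 8.57 to 9.11 FPKM in NSUN2-KO and 8.11 to 8.85 FPKM in NC over 3 genes. The part of these differences in the results below was not tested. In bulk libraries such as these, fewer cells of a type and less RNA per cell cannot be told apart.

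Promoters of 4 members are given here because they set a pair of genes that rose in NSUN2-KO, Maff and Ier3, beside the AP-1 namesakes Fos and Jun, which did not pass the test. The sequences are from RefSeq (GRCm38.p6) and run 5′ to 3′ on the gene's strand, up to the annotated start, with motifs found on either strand in capitals. Of the 10 members, 9 matched an entry, and Egr1 is named only. Maff has 3 annotated starts, and the middle one is printed.
Maff (chr15:79347270-79347519, plus strand): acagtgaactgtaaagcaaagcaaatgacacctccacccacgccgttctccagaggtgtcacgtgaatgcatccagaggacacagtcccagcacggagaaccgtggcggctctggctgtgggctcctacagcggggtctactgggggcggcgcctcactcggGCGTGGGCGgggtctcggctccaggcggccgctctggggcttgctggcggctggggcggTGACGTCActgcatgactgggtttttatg
Ier3 (chr17:35821463-35821683, plus strand): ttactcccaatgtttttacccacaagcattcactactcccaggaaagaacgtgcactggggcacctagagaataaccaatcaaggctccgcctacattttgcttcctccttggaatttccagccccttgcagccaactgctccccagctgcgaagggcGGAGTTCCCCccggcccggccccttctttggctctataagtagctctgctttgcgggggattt
Fos (chr12:85473640-85473889, plus strand): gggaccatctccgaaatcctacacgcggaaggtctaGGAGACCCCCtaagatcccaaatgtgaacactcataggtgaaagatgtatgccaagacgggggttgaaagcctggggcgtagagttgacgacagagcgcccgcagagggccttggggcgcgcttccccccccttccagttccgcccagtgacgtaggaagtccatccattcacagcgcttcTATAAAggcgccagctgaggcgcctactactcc
Jun (chr4:95052223-95052472, minus strand): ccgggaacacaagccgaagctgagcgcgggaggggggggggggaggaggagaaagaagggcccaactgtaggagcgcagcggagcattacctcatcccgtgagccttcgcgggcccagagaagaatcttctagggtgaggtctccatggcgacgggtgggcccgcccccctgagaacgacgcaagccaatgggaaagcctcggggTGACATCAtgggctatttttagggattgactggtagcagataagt
In Maff the capitals mark an Egr-type motif (GCGNGGGCG) 88 bases and a CRE-type motif (TGACNTCA, the element bound by ATF, CREB and some Jun dimers) 29 bases before the start. In Ier3 they mark an NF-kB consensus 92 bases before the RefSeq start, and the 29 bases next to that start, which GENCODE vM21 places in an exon, are not printed. Fos carried an NF-kB consensus 214 bases and a TATA box (TATAAA) 33 bases before its start, and Jun a CRE-type motif 45 bases before its start.

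The same motifs were searched on both strands in all 32851 RefSeq windows from 250 bases before to 50 bases after a start. The CRE-type motif was in 8.83% of them and in 3 of the 11 member windows, those of Jun and of 2 Maff starts. An NF-kB consensus was in 8.46% of all windows and in 5 member windows, belonging to Fos, Fosb, Fosl2, Ier3 and Maff. The Egr-type motif was in 5.55% of windows and in those of Fosb, Fosl2 and Maff. Among the Maff starts, only the printed one had the Egr-type motif. The first Maff start, which is the gene start used in the deposited table, matched none of the motifs searched. The AP-1 motif TGANTCA (7.81% of windows) and the CArG box bound by serum response factor (1.63%) matched in 0 member windows. These are letter matches in short windows and say nothing of binding. The Jund window lies upstream of the gene start used in the deposited table, and the Fosl2 window lies inside an exon annotated in GENCODE vM21.

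The 10 genes differed widely in abundance. Averaged over the 6 libraries, Atf3 stood at 414.9 FPKM and was the 93rd most abundant of all genes in the table. Below it came Junb at 118.3, Ier3 at 39.4, Jun at 33.5, Fos at 24.0, Jund at 12.7, Fosl2 at 5.64, Maff at 3.45, Egr1 at 1.18 and Fosb at 0.0351 FPKM. Every neighbouring pair in this order was separated in all 6 libraries except Ier3 and Jun, whose ranges of 34.8 to 46.6 and 31.9 to 36.1 FPKM overlapped. Within the 3 NSUN2-KO libraries alone Ier3 and Jun did not overlap, whereas within the 3 NC libraries they did.

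**Figure D1:**
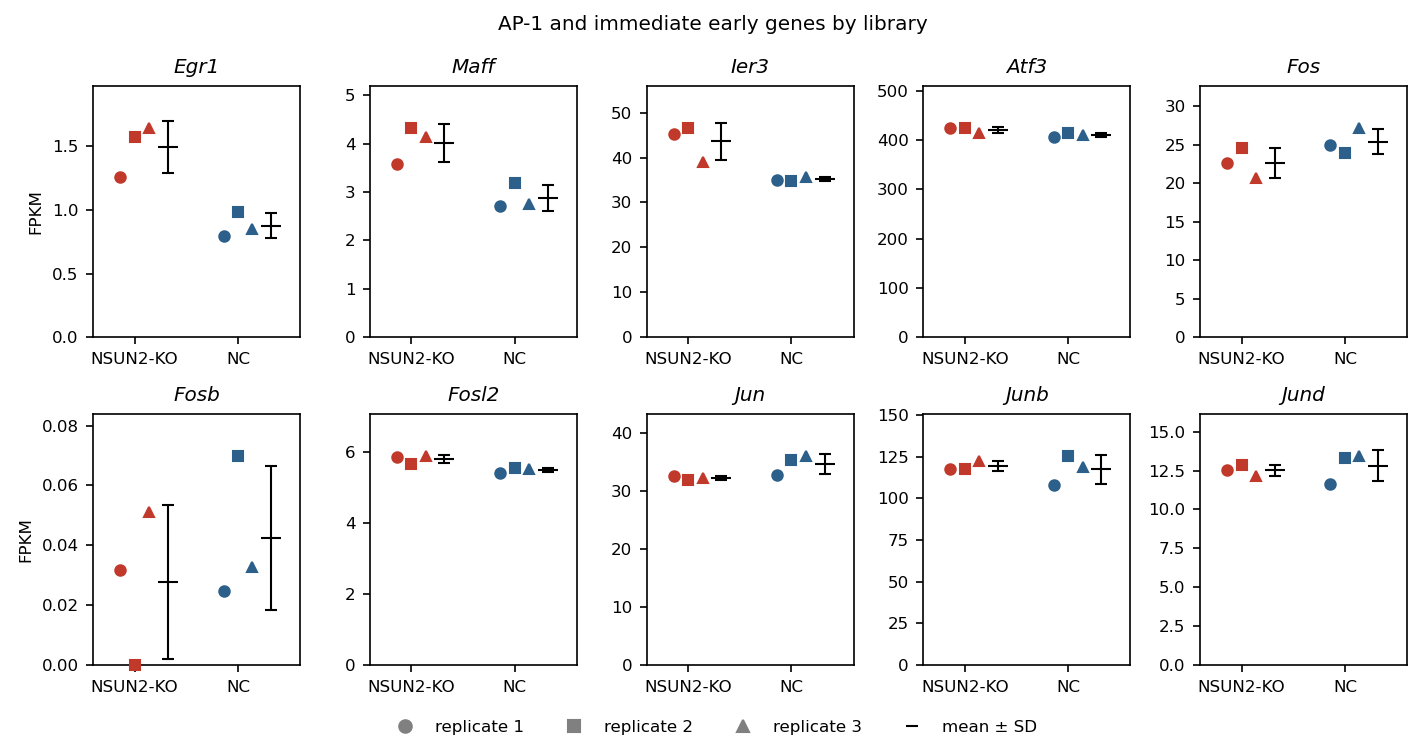
FPKM of each of the 10 genes (vertical axes, each from 0) in 3 NSUN2-KO and 3 NC libraries; symbols mark replicates and black bars the mean ± SD. All NSUN2-KO values of Egr1, Maff, Ier3 and Fosl2 lie above all NC values, those of Jun lie below, and the other 5 genes overlap between groups.

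Egr1, Maff and Ier3 rose in NSUN2-KO macrophages, whereas none of the Fos and Jun genes or Atf3 passed the test in either direction. Genes averaging at least 1 FPKM were tested with limma on log2(FPKM + 1), and a Benjamini-Hochberg adjusted p below 0.05 over all 9443 of them was taken as a change. Of the 9 members tested, 3 rose and 0 fell, where 4.19% of all tested genes rose, 4.3% fell and 8.49% changed in either direction. Egr1 entered the test only through its NSUN2-KO level, so this count is a description and is not read against those shares. With no minimum level 0 members were called. Limma gave 5 members an unadjusted p below 0.05, as it did 2409 of all 9443 tested genes. Limma voom, run on recovered reads, called 3 members higher and 0 lower, where it called 706 of all tested genes higher and 664 lower. In 4 members, Egr1, Maff, Ier3 and Fosl2, every NSUN2-KO library lay above every NC library, and in Jun every one lay below, where 14.4% and 16.7% of all tested genes were separated in these ways. The 3 calls depended on single libraries. Leaving out NSUN2-KO replicate 2, NC replicate 1 or NC replicate 3 left 0 members called, leaving out NSUN2-KO replicate 3 left Ier3, leaving out NC replicate 2 left Maff, and leaving out NSUN2-KO replicate 1 left Egr1 and Maff.

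Egr1 (ENSMUSG00000038418, GRCm38 chromosome 18, 34859823 to 34864984, plus strand), a zinc finger transcription factor induced through serum response factor and its ternary complex partners, had the largest fold change of the members and one of the lowest levels. It measured 1.26, 1.57 and 1.64 FPKM in NSUN2-KO replicates 1 to 3, against 0.796, 0.984 and 0.849 FPKM in NC replicates 1 to 3. The groups did not overlap, and the lowest NSUN2-KO library was replicate 1. These values rested on 227, 247 and 277 reads in NSUN2-KO and 138, 202 and 149 reads in NC. The NSUN2-KO mean was 1.70 times the NC mean, and the log2 fold change on the log2(FPKM + 1) scale, which understates changes of low genes, was 0.41 (SE 0.09, limma adjusted p = 0.0332). It was 0.70 with 0.1 in place of 1 added, 0.14 with 5 added, and 0.75 (adjusted p = 0.00277) with limma voom. The NC mean of 0.876 ± 0.097 FPKM lay under the 1 FPKM minimum, so Egr1 was tested only because of its NSUN2-KO level of 1.49 ± 0.20 FPKM (SD, n = 3 each). With no minimum its adjusted p was 0.139.

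Maff (ENSMUSG00000042622, chromosome 15, 79346621 to 79359076, plus strand) encodes a small Maf protein, a bZIP factor that lacks a transactivation domain and pairs with other bZIP proteins. Its FPKM was 3.58, 4.33 and 4.14 in NSUN2-KO replicates 1 to 3, against 2.71, 3.19 and 2.75 in NC replicates 1 to 3. All NSUN2-KO libraries were higher than all NC libraries, the closest being NSUN2-KO replicate 1 and NC replicate 2. The NSUN2-KO mean was 1.39 times the NC mean (log2 fold change 0.37, SE 0.08, limma adjusted p = 0.0301), and the log2 fold change was 0.46 with limma voom and 0.19 with 5 FPKM added. With no minimum level its adjusted p was 0.124.

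Ier3 (ENSMUSG00000003541, chromosome 17, 35821684 to 35822923, plus strand) encodes a small stress-inducible protein, also called IEX-1, that acts on survival signalling and is not a transcription factor. It measured 45.2, 46.6 and 39.0 FPKM in NSUN2-KO replicates 1 to 3 and 35.1, 34.8 and 35.7 FPKM in NC replicates 1 to 3. The NC libraries lay close together, with an SD of 0.43 FPKM, whereas the NSUN2-KO libraries had an SD of 4.06 FPKM and replicate 3 lay nearest to NC. The mean ratio was 1.24 (log2 fold change 0.30, SE 0.06, limma adjusted p = 0.0283). Without NSUN2-KO replicate 3 the adjusted p was 0.00384, without NSUN2-KO replicate 1 it was 0.101, and with no minimum level it was 0.126. When the 6 FPKM values were permuted exactly, the two-sided p was 0.1 for each of Egr1, Maff and Ier3, the smallest that 3 against 3 libraries allow.

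Atf3 (ENSMUSG00000026628, chromosome 1, 191170296 to 191218039, minus strand), a bZIP factor that Toll-like receptors induce and that restrains several cytokine genes in macrophages, was the most abundant member. Its level was 424.3, 423.5 and 413.3 FPKM in NSUN2-KO replicates 1 to 3 and 405.5, 413.6 and 409.4 FPKM in NC replicates 1 to 3. The groups overlapped at NSUN2-KO replicate 3 and NC replicate 2. The coefficient of variation was 1.46% in NSUN2-KO and 0.985% in NC. The log2 fold change was 0.04, with a 95% interval of -0.025 to 0.10 (limma adjusted p = 0.432).

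**Figure D2:**
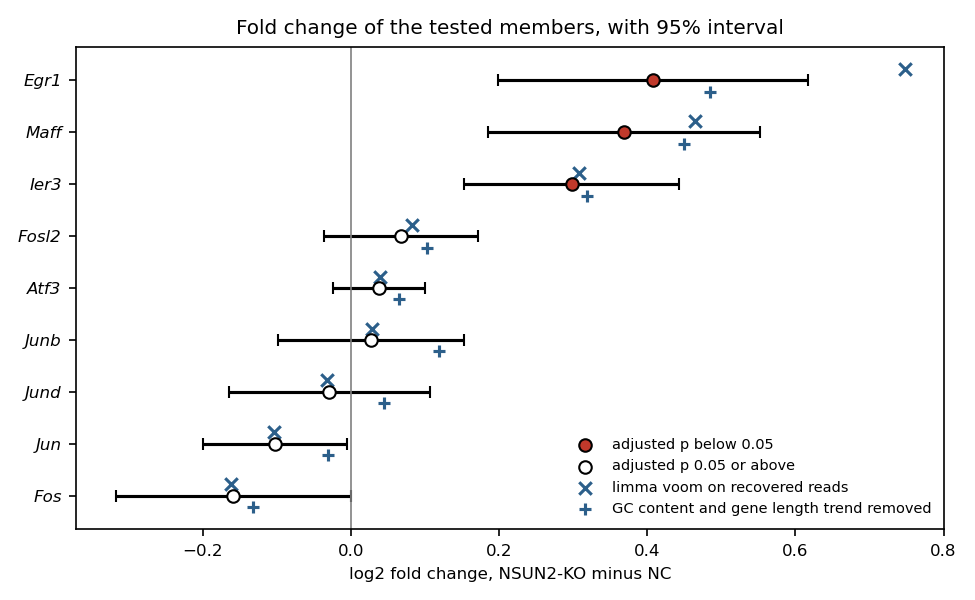
Log2 fold change on the log2(FPKM + 1) scale (horizontal axis, NSUN2-KO minus NC) of the 9 tested genes, with 95% intervals from limma; crosses and plus signs give limma voom and the values with the trend over GC content and gene length removed. Egr1, Maff and Ier3, at 0.41, 0.37 and 0.30, stand to the right of the other 6 genes, which lie between -0.16 and 0.07.

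Among the Fos genes, Fos was the most abundant. Fos (ENSMUSG00000021250, chromosome 12, 85473890 to 85477273, plus strand), the founding partner of Jun, measured 22.6, 24.6 and 20.7 FPKM in NSUN2-KO replicates 1 to 3 and 25.02, 24.0 and 27.2 FPKM in NC replicates 1 to 3. The NSUN2-KO values were lower on average, but replicate 2 lay above NC replicate 2. The log2 fold change was -0.16 with an interval of -0.32 to -0.00069, and the adjusted p was 0.194. Leaving out NSUN2-KO replicate 3 gave -0.099 (adjusted p = 0.386), and leaving out replicate 2 of that group gave -0.22 (adjusted p = 0.108). Fosl2, which encodes the Fos-related protein Fra-2, measured 5.84, 5.65 and 5.89 FPKM in NSUN2-KO and 5.41, 5.53 and 5.51 FPKM in NC. Its groups were apart by a small margin, with a log2 fold change of 0.07 (interval -0.036 to 0.17, limma adjusted p = 0.398). Fosb was close to the limit of detection, with 8, 0 and 12 reads in NSUN2-KO and 6, 20 and 8 reads in NC. A count of 0 allows up to 3 reads. These gave 0.0319, 0 and 0.0512 FPKM in NSUN2-KO and 0.0249, 0.0700 and 0.0327 FPKM in NC. Fosb was not tested with limma, an exact two-sided permutation test gave p = 0.5, and a difference was not detectable at this depth.

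Among the Fos and Jun members, the Jun genes carried most of the mRNA. Junb (ENSMUSG00000052837, chromosome 8, 84974484 to 84978718, minus strand), which often restrains Jun at shared targets, measured 117.7, 117.6 and 122.6 FPKM in NSUN2-KO replicates 1 to 3 and 107.7, 125.6 and 118.4 FPKM in NC replicates 1 to 3. All NSUN2-KO values fell inside the NC range (log2 fold change 0.03, interval -0.098 to 0.15, limma adjusted p = 0.801). The sign of this small value turned to -0.03 without NC replicate 1. Junb overlaps the oppositely transcribed Prdx2 by 351 bases, and since the strand setting of the counting is not given, reads of that stretch are uncertain. Prdx2, a peroxiredoxin, measured 48.3 ± 1.18 FPKM in NSUN2-KO and 51.4 ± 0.44 FPKM in NC (SD, n = 3 each).

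Jun (ENSMUSG00000052684, chromosome 4, 95049034 to 95052222, minus strand) measured 32.6, 31.9 and 32.3 FPKM in NSUN2-KO replicates 1 to 3 and 32.8, 35.3 and 36.1 FPKM in NC replicates 1 to 3. The NSUN2-KO libraries were the tighter group and lay below all NC libraries, with NC replicate 1 the closest. The log2 fold change of -0.10 had an interval of -0.20 to -0.0059 and an adjusted p of 0.173. With the trend over GC content and gene length removed the log2 fold change was -0.03. Its antisense neighbour Junos, which overlaps it by 689 bases, measured 0.469 ± 0.048 FPKM in NSUN2-KO and 0.512 ± 0.11 FPKM in NC. Jund, the most steadily expressed Jun gene in many cell types, measured 12.5, 12.8 and 12.1 FPKM in NSUN2-KO and 11.6, 13.3 and 13.5 FPKM in NC. The groups overlapped, with a log2 fold change of -0.03 (interval -0.17 to 0.11, adjusted p = 0.801).

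Summed over family members, Fos-family mRNA stood at 28.5 ± 1.80 FPKM in NSUN2-KO and 30.9 ± 1.63 FPKM in NC. Jun-family mRNA stood at 164.1 ± 2.62 FPKM in NSUN2-KO and 164.8 ± 11.4 FPKM in NC (SD, n = 3 each). The Jun-family sum was thus 5.78 ± 0.45 times the Fos-family sum in NSUN2-KO and 5.34 ± 0.48 times in NC, with overlapping ranges of 5.36 to 6.26 and 5.00 to 5.89. Junb supplied 61.9% ± 1.18 of the summed mRNA of these Fos and Jun members in NSUN2-KO and 59.9% ± 1.52 in NC. Jun supplied 16.8% ± 0.26 in NSUN2-KO and 17.8% ± 0.38 in NC, and its share was lower in every NSUN2-KO library than in any NC library. The shares were not tested, and the level of Jun was not called (limma adjusted p = 0.173).

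The calls were set against base composition, since fold changes in these libraries followed it: over 9433 tested genes, GC content of the longest transcript and log2 fold change were correlated at a Spearman rho of -0.374. This is a correlation across genes, which are not independent of each other. The 10 members ranged from 51.9% GC in Fos to 67.1% GC in Jund, all above the median of 49.2% over tested genes. Once the dependence on GC content and length had been taken out of each library, Egr1, Maff and Ier3 had log2 fold changes of 0.48, 0.45 and 0.32 (limma adjusted p = 0.0154, 0.0107 and 0.0195). Jund, the richest in GC, then had a log2 fold change of 0.04 in place of -0.03 and was not called (adjusted p = 0.687). Junb, also GC-rich, then had a log2 fold change of 0.12 in place of 0.03 and was not called (adjusted p = 0.0814).

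**Figure D3:**
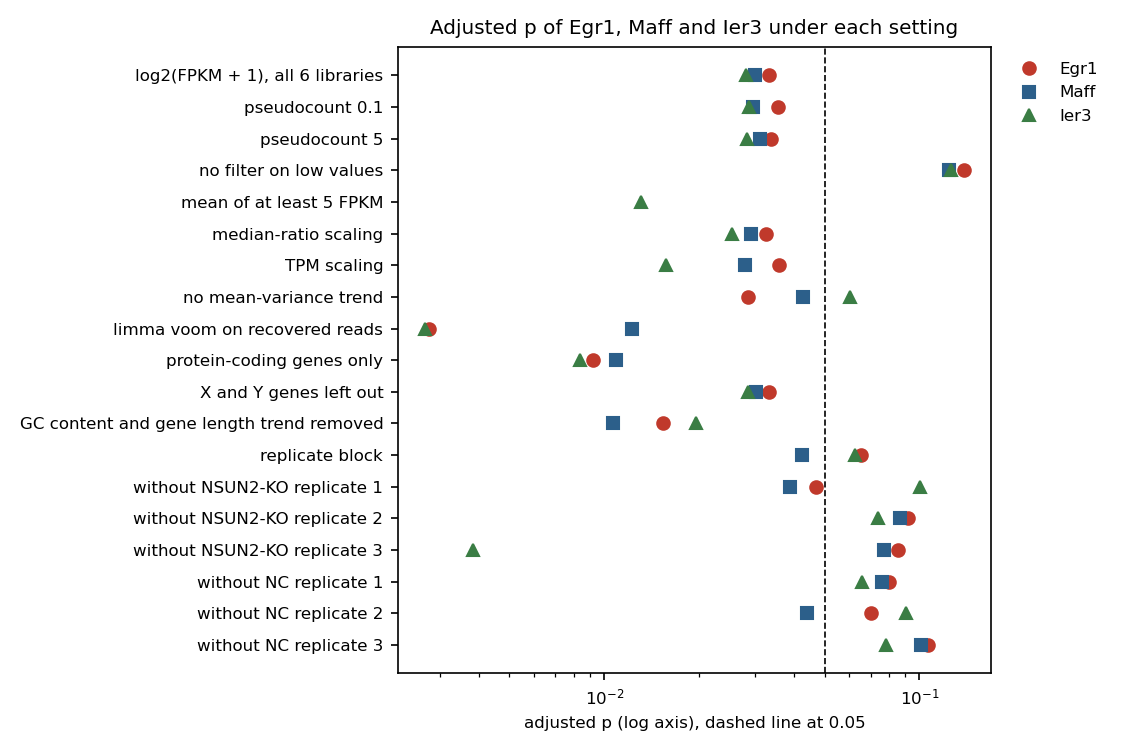
Adjusted p (log axis) of Egr1, Maff and Ier3 with all 6 libraries and under each alternative; the dashed line is at 0.05. Points lie left of the line for most changes of scale or test, and right of it with no minimum level and for most fits without 1 library; Egr1 and Maff have no point with a minimum mean of 5 FPKM, where they were not tested.

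Other immediate early genes rose in 4 and fell in 0 of 24 tested members of a list of 33, with a median log2 fold change of -0.0098, beside -0.0056 over all genes tested, of which 4.19% rose and 4.3% fell. Klf10, a zinc finger factor of the TGF-β response, measured 17.2 ± 0.067 FPKM in NSUN2-KO and 14.3 ± 0.75 FPKM in NC (log2 fold change 0.25, limma adjusted p = 0.0161). Rhob, a small GTPase, measured 60.4 ± 1.42 FPKM in NSUN2-KO and 52.8 ± 2.89 FPKM in NC. Plk2, a polo-like kinase, stood at 31.1 ± 1.34 FPKM in NSUN2-KO and 26.9 ± 1.16 FPKM in NC, and Nfkbiz, the nuclear co-regulator IκBζ, at 11.6 ± 0.53 FPKM in NSUN2-KO and 10.1 ± 0.21 FPKM in NC. The number that rose was 0 without NSUN2-KO replicate 1, 3 without NSUN2-KO replicate 2, 2 without NC replicate 2 and 1 without any of the other 3 libraries. The 2 other Egr genes of the list, Egr2 and Egr3, averaged 0.0474 and 0.0759 FPKM in NSUN2-KO and 0.0510 and 0.0794 FPKM in NC and were not tested.

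Of 23 tested bZIP factors outside the 10 genes, from a list of 26, 1 fell and 0 rose, and their median log2 fold change was 0.01. Among all tested genes 4.3% fell and 4.19% rose, so these shares are near the background. Under 5 alternatives (a 5 FPKM minimum, median-ratio scaling, limma voom, protein-coding genes only, and the trend over GC content and length removed) 1 bZIP factor of the list was higher. Cebpa, a factor of myeloid differentiation, measured 4.89 ± 0.66 FPKM in NSUN2-KO and 7.10 ± 0.097 FPKM in NC (log2 fold change -0.47, SE 0.08, limma adjusted p = 0.0139). It was not called without NSUN2-KO replicate 1, NC replicate 2 or NC replicate 3. In the limma test with all 6 libraries and none of these alternatives, the small Maf genes nearest to Maff, Mafk and Mafg, were not called. The bZIP factor higher under the 5 alternatives was counted without its name, so Mafk may be that gene. Mafk measured 24.9 FPKM in NSUN2-KO and 22.3 FPKM in NC (log2 fold change 0.15, limma adjusted p = 0.0555). Every NSUN2-KO library of Mafk lay above every NC library. Mafg measured 22.6 FPKM in NSUN2-KO and 23.6 FPKM in NC, with overlapping groups (limma adjusted p = 0.484).

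Upstream of AP-1, 1 of 28 tested genes of the MAP kinase cascade rose and 1 fell, with a median log2 fold change of -0.03. These shares are near the 4.19% and 4.3% of all tested genes that rose and fell. Map2k1, the kinase MEK1 that activates ERK, measured 89.4 ± 2.57 FPKM in NSUN2-KO and 78.7 ± 0.29 FPKM in NC (log2 fold change 0.18, limma adjusted p = 0.0144). Mapk14, the p38α kinase, measured 23.4 ± 0.72 FPKM in NSUN2-KO and 26.2 ± 0.15 FPKM in NC (log2 fold change -0.15, adjusted p = 0.0387). No gene of the list was higher without NC replicate 2 or NC replicate 3, and none was lower in the 5 fits without NSUN2-KO replicate 1, NSUN2-KO replicate 2 or any NC replicate. Of 11 tested ternary complex factors, coactivators and Egr corepressors 0 were called by limma, which called 8.49% of all tested genes. Limma voom also called 0 of them, where it called 1370 of all 9443 tested genes. An unadjusted limma p below 0.05 was found for 0 of them and for 2409 of all tested genes. The 2 with the smallest p were Nab1, a corepressor of Egr proteins, at 39.3 ± 1.44 FPKM in NSUN2-KO and 36.7 ± 1.94 FPKM in NC (adjusted p = 0.239), and Elk1, a ternary complex factor, at 3.09 ± 0.21 FPKM in NSUN2-KO and 3.40 ± 0.30 FPKM in NC (adjusted p = 0.415).

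Immediate early genes also respond to the handling of cells, as heat shock genes do. Of 13 tested heat shock genes 2 rose and 0 fell, where 4.19% of all tested genes rose and 4.3% fell, with a median log2 fold change of 0.06. Hsp90aa1, the inducible HSP90, measured 103.4 ± 1.20 FPKM in NSUN2-KO and 81.0 ± 2.32 FPKM in NC (log2 fold change 0.35, limma adjusted p = 0.00107), and Hspa1b, a nearly identical copy of Hspa1a whose reads are therefore uncertain, 8.40 ± 0.18 FPKM in NSUN2-KO and 7.14 ± 0.43 FPKM in NC (adjusted p = 0.0471). Leaving out any 1 of the 6 libraries left 1 gene of the list called. The summed level of the whole list of 14 was 869.5 to 880.2 FPKM in NSUN2-KO and 854.9 to 872.9 FPKM in NC. The part of handling in the values of Egr1, Maff and Ier3 was not tested.

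**Figure D4:**
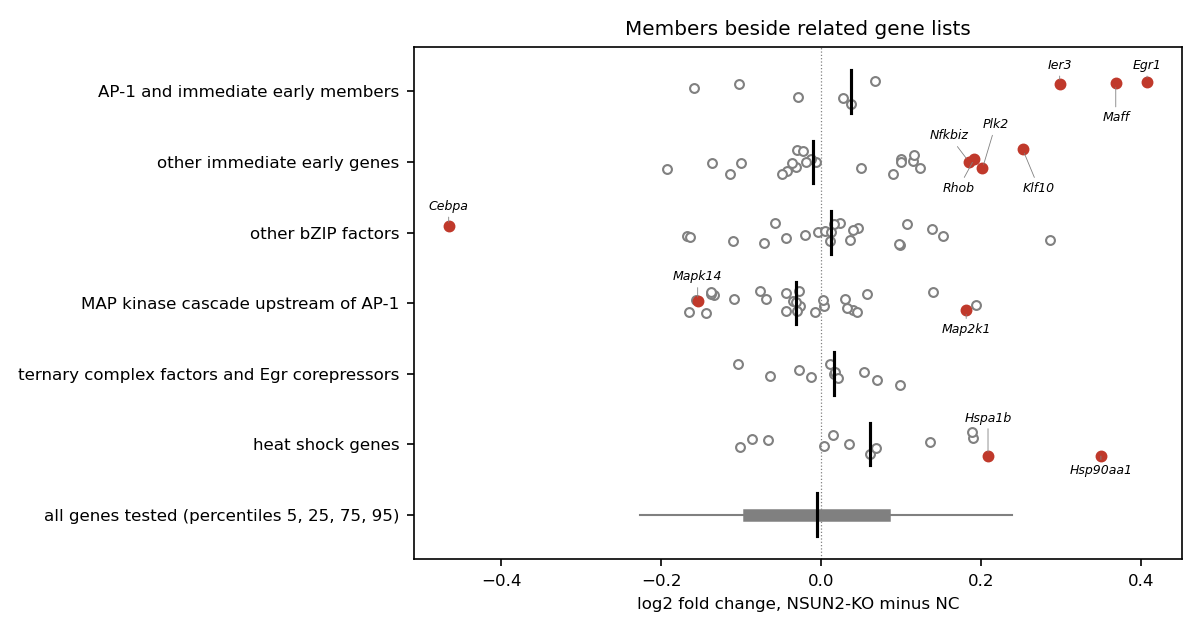
Log2 fold change (horizontal axis, NSUN2-KO minus NC, log2(FPKM + 1) scale) of the tested genes of each list; red points passed an adjusted p of 0.05, open points did not, and vertical bars are medians. Medians of the lists lie between -0.03 and 0.06, and the bottom line spans -0.23 to 0.24, the 5th to 95th percentile of all tested genes.

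The genes whose pattern over the 6 libraries was most like that of Egr1 were sought among 8512 other protein-coding genes by the root-mean-square difference of centred log2(FPKM + 1). The closest were Bcl2a1d at 0.0431, Fam162a at 0.0483 and Hcar2 at 0.0553. This scale understates changes of low genes such as Egr1, whose log2 fold change was 0.75 with limma voom. Genes picked for closeness to Egr1 are higher in NSUN2-KO through that selection. Bcl2a1d, a member of a multigene family whose reads may be shared with its copies, measured 25.6, 29.2 and 29.2 FPKM in NSUN2-KO and 20.2, 21.7 and 22.1 FPKM in NC. Fam162a measured 43.0, 45.4 and 49.99 FPKM in NSUN2-KO and 31.2, 34.7 and 33.9 FPKM in NC. Hcar2, a receptor for hydroxy-carboxylic acids, measured 21.6, 23.7 and 22.4 FPKM in NSUN2-KO and 15.9, 18.5 and 16.5 FPKM in NC.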

How the data were processed

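GRCm38 (mm10) is the build, and HISAT2 (2.0.5), featureCounts (1.5.0-p3), DESeq2 (1.20.0), fastp and CASAVA (1.8) are the tools, per the submitters' processing notes. The sources used here do not give their roles, the annotation or the strand setting. The authors deposited FPKM values per library with the gene length used. FPKM times length gave whole multiples of 1 step for 100% of values above 0 (tolerance 0.01 reads), so reads were recovered. A single read per kilobase equalled 0.0218 to 0.0285 FPKM. Each column was matched to the sample whose title carries its group and number.

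Log2(FPKM + 1) of genes averaging 1 FPKM or more was tested in R 4.3.3 with limma 3.58.1 (trended empirical Bayes, no covariate, NSUN2-KO minus NC), and p-values were adjusted by Benjamini-Hochberg. Alternatives were another pseudocount, minimum or scaling, no trend, limma voom, gene subsets, removal of each library's loess trend over GC content (GENCODE vM21 transcripts) and length (span 0.5), a replicate block, and leaving out each library. Named genes were all members, the called genes of each list (at most 4, or the 2 of smallest p), overlapping genes, and the 3 genes nearest in pattern to the called member of largest fold change. Egr2, Egr3, Fosl1, Mafk, Mafg and single marker genes were picked with their values already seen. A gene of the bZIP and macrophage lists is not reported here and was left out of their counts. The members and lists were chosen with earlier results of these data known, and the motifs with the sequences in view. Libraries were not duplicates: the mean chi-square per gene between libraries was 5.66 to 11.6 within groups, where sampling alone gives 1. Python 3.11.15, pandas 2.3.3 and matplotlib 3.10.9 were used.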

Additional observations from a re-analysis of the deposited data

How the results depend on the processing

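The number of members that rose was 3 with all libraries. With all genes above 0 tested it was 0. It was 1 with a mean of at least 5 FPKM (which left Egr1 and Maff untested), 2 without the mean-variance trend, 1 with the replicate number as a block, and 0 to 2 without 1 library. No member fell under any of the 18 alternatives. The log2 fold changes of Egr1, Maff and Ier3, 0.41, 0.37 and 0.30, had adjusted p = 0.139, 0.124 and 0.126 with no filter. Ier3 lost its call without the trend (0.30, adjusted p = 0.0604), and Egr1 and Ier3 under the replicate block (0.41, adjusted p = 0.0654, and 0.30, adjusted p = 0.0623). Without 1 library the log2 fold change was 0.36 to 0.48 for Egr1, 0.32 to 0.43 for Maff and 0.25 to 0.37 for Ier3, with adjusted p of 0.0469 to 0.107, 0.0388 to 0.101 and 0.00384 to 0.101. Jund reversed to 0.044 after removal of the trend over GC content and length and ranged from -0.091 to 0.0054 without 1 library, and Junb ranged from -0.032 to 0.078. Junb was at 0.12 (adjusted p = 0.0814) after that removal. Neither was called under any alternative. The number of genes changed among all tested was 802, and 265 with no filter, 526 without the trend, 1370 with limma voom, 351 with the block and 276 to 596 without 1 library. Other immediate early genes rose in 0 to 6, other bZIP factors rose in 0 to 1 and fell in 0 to 3, over all alternatives. Deviations from the group mean had correlations of -0.0298 to 0.0034 between same-numbered libraries, and of -0.0359 to 0.0455 between differently numbered ones. With 3 libraries per group this cannot show whether the libraries were handled in pairs. The causes of the differences between settings were not tested. Egr1 and Maff rested on 138 to 403 reads per library, and the limit given for a count of 0 covers counting error only.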
